A study of Mus musculus with 6 samples.

Results

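The genes described here are the transcription factor gene Myc, the gene of its partner Max, and 8 genes of the machinery that makes ribosomes: Ncl, Npm1, Fbl, Nop56, Nop58, Dkc1, Polr1a and Polr1b. They were chosen by name, as the rows of the deposited expression table whose Ensembl IDs map to these symbols, and all 10 were found among its 37224 rows. All passed the filter used below, an RPKM (reads scaled to gene length and library depth) of at least 1 in any library. The study measured RNA in mouse embryonic fibroblasts, cells grown from the connective tissue of embryos, to describe the response to a low dose of arsenic and the part of the histone methyltransferase Dot1L in it. Each of its 4 RNA groups held 1 library. The groups were Dot1L-/- cells given sodium arsenite, Dot1L-/- cells left untreated, wild-type cells given sodium arsenite, and wild-type cells left untreated. Both genotypes are labelled primary fibroblasts on a C57BL/6 background and were grown in the same medium. Arsenite was given for 24 h; the treatment protocol lists 5 and 10 µM without saying which was sequenced. The labels do not say how many embryos or clones lie behind either genotype.

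Myc is a transcription factor that binds DNA as a pair with Max and drives genes of growth, among them genes of ribosome production. Ribosomes are built in the nucleolus, where RNA polymerase I copies the ribosomal RNA genes. Small nucleolar RNA particles then guide the chemical marking of the new RNA: box C/D particles methylate riboses, and box H/ACA particles turn uridines into pseudouridines. Fibroblasts in culture grow and divide, and so keep this machinery in use.

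Depth, recovered from the whole-read steps of the RPKM values, was 11879632 reads in the null with arsenite, 64699847 in the null control, 10833103 in wild type with arsenite and 62972880 in the wild-type control. The 100 genes with the most reads held 42.1%, 20.6%, 35.4% and 16.9% of the reads counted in genes, in the same order. RPKM is scaled to all reads, and what this does to the differences below was not tested. Every difference below sets a library against a library, with no replicate check, and in bulk RNA fewer cells of a type and less RNA per cell cannot be told apart. Dot1l itself had 1.24 RPKM in the null and 5.71 RPKM in wild type under arsenite, and 9.59 and 30.4 RPKM in the untreated null and wild type; the table holds totals per gene, so a deleted part cannot be seen. Of 10 fibroblast markers 7 passed the filter, with summed RPKM values of 799 to 1966 over the 4 libraries, and Thy1 was listed at 0 in all of them. Summed markers of macrophages and leukocytes reached 9.28 RPKM, those of epithelium 3.07, of endothelium 1.87 and of pluripotent cells 0.751. Differences between arsenite and control libraries followed gene length. Genes from 500 up to 1000 bases long had a median log2 difference of 1.14 in the null and 1.01 in wild type, and those of 12000 bases or more had medians of -1.52 and -1.54 in the same order. Values of the 10 genes are therefore set beside those of genes of like length, meaning within 1.25-fold of their own.

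In the Dot1L null, 7 of the 10 genes were at least 2-fold lower with arsenite than in the control and none was 2-fold higher. Over all 12588 genes tested, 37.1% were lower and 15.2% higher. In wild type, 3 of the 10 were lower with arsenite (35.7% of all genes) and 2 were higher (12.8%). Without arsenite all 10 genes stood above the wild-type level in the null, where the median of all genes was -0.17. Nop56 did so by 0.02 only, within counting error. Past 2-fold was 1 of the 10 (6.45% of all genes were higher past 2-fold and 14.7% lower). Under arsenite all 10 stood below the wild-type level in the null, as did the median of all genes (-0.28). Of these, 2 were past 2-fold on the log2 scale (of all genes, 16.9% were lower and 8.75% higher). Polr1b fell short there, at -0.94, but its ratio of RPKM without the added 1 was 2.70-fold lower (counting interval 2.07 to 3.55). With a pseudocount of 0.1 RPKM the count was 3. The log2 difference of Polr1a under arsenite was -0.32. It became 0.02 when a length trend fitted over genes with an RPKM of at least 5 was removed. The difference of the arsenite effects, the log2 difference in the null minus that in wild type, was below 0 for all 10 genes and at or below -1 for 9 of them, against 12.8% of all genes. All log2 differences and 2-fold calls are on the scale log2((RPKM + 1)/(RPKM + 1)), on which genes of low level look closer together than they are. Fold values given with counting intervals are ratios of RPKM without the added 1. The genotype comparisons and the difference of the arsenite effects use the same 4 libraries as the arsenite comparisons, so they are not separate evidence.

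**Figure D1:**
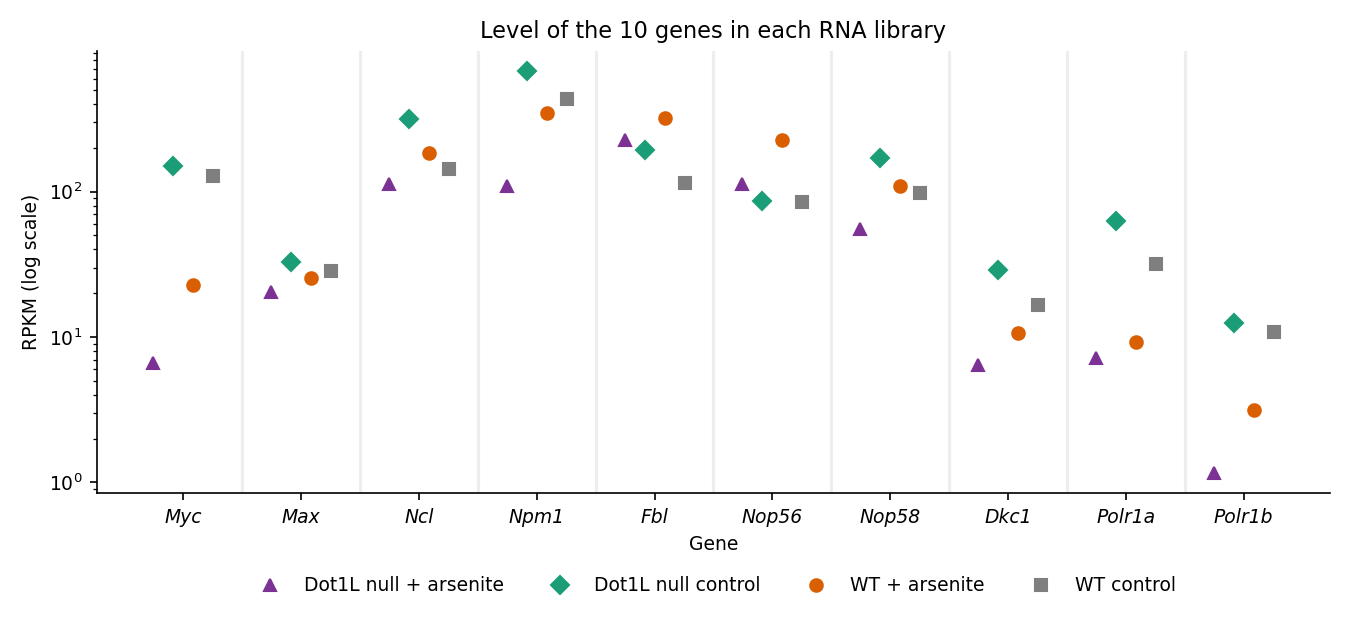
Level of each of the 10 genes (RPKM, log axis) in the 4 RNA libraries, 1 point per library. Myc had 6.66 RPKM in the null with arsenite, the lowest of its 4 values, and the same library was the lowest for every other gene but Fbl and Nop56, whose lowest value was that of the wild-type control.

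Myc (ENSMUSG00000022346, chromosome 15, 61985341 to 61990361 in GRCm38) had 6.66 RPKM with arsenite and 149.7 RPKM in the control in the null, 22.5-fold lower with arsenite (95% counting interval 19.7 to 25.8). Its wild-type levels were 23.0 RPKM with arsenite and 128 RPKM in the control, 5.56-fold lower (5.15 to 6.01). The arsenite libraries were thus the low ones in both genotypes, and the null with arsenite was the lowest. These values rest on 215, 26321, 676 and 21844 reads, and the intervals cover counting error only. By level, Myc ranked 4545 of the 12588 genes in the null with arsenite, 309 in the null control, 2324 in wild type with arsenite and 344 in the wild-type control. On the log2 scale the difference was -4.30 in the null and -2.42 in wild type, where 2616 genes of like length had medians of -0.37 and -0.39. With the length trend removed it was -3.94 in the null and -2.08 in wild type. Untreated, Myc was 1.17-fold higher in the null (1.15 to 1.19), and under arsenite it was 3.45-fold lower in the null (2.95 to 4.04).

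Max (ENSMUSG00000059436, chromosome 12, 76937269 to 76962323), the partner through which Myc binds DNA, differed far less with arsenite. It had 20.5 RPKM with arsenite and 33.1 RPKM in the control in the null, 1.61-fold lower (1.47 to 1.77). Wild-type cells had 25.4 RPKM with arsenite and 28.6 RPKM in the control, 1.13-fold lower (1.03 to 1.24); the log2 difference of -0.17 became 0.39 once the median of all genes was set to 0. Max was the only one of the 10 whose difference of the arsenite effects, -0.49, did not reach -1. The ratio of Myc to Max within a library, in which the scaling of the library cancels, was 0.324 in the null with arsenite, 4.53 in the null control, 0.905 in wild type with arsenite and 4.46 in the wild-type control. Myc thus stood above Max in both controls and below it in both arsenite libraries.

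The promoters that RefSeq gives (GRCm38.p6) were read for the E-box CACGTG, the letters that Myc and Max pairs are known to bind, and for its variants, on both strands of windows from 250 bases before to 50 bases after a transcript start. Windows were matched for 7 of the 10 genes. The E-box occurred in 1 of them, that of Max, and in 7.15% of all 32851 windows. The variant CATGCG occurred in that of Dkc1 and in 6.50% of all windows. The variant CATGTG occurred in those of Dkc1 and Polr1a and in 14.2% of all. The variant CACGCG occurred in none of the 7 and in 9.27% of all. These are matches of letters and say nothing of binding in these cells. Sequences from 200 bases before to 20 bases after the start follow for Max, the gene with the E-box and a small difference, for Dkc1, where the matches of both its variants overlap, for Nop56, the gene with the highest arsenite effect in the null, and for Polr1b, which was low with arsenite in both genotypes. Capitals mark the matched letters, and all are written in the direction of the gene.
Max, chr12:76962229-76962448, minus strand: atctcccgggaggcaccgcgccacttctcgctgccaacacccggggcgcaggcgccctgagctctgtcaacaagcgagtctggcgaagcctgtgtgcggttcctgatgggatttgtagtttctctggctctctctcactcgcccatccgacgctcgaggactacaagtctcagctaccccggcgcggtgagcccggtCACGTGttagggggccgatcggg
Dkc1, chrX:75095654-75095873, plus strand: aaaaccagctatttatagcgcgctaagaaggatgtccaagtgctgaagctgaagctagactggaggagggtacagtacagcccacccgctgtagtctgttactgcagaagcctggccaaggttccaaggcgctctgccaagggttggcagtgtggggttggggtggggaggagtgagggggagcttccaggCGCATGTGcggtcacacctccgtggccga
Nop56, chr2:130274212-130274431, plus strand: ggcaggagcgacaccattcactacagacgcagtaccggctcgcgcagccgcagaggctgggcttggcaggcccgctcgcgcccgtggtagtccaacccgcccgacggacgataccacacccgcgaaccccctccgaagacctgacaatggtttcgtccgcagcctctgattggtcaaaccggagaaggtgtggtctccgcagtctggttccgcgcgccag
Polr1b, chr2:129100796-129101015, plus strand: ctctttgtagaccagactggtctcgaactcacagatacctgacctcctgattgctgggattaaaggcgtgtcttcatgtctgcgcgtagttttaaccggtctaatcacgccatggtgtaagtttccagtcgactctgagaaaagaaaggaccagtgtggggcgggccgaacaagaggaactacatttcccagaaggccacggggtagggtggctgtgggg
The 4 windows had GC contents of 64.5%, 58.6%, 65.9% and 52.7% in this order, beside a median of 53.2% over all windows of this length. They held 21, 8, 24 and 10 CpG sites, beside a median of 5.

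**Figure D2:**
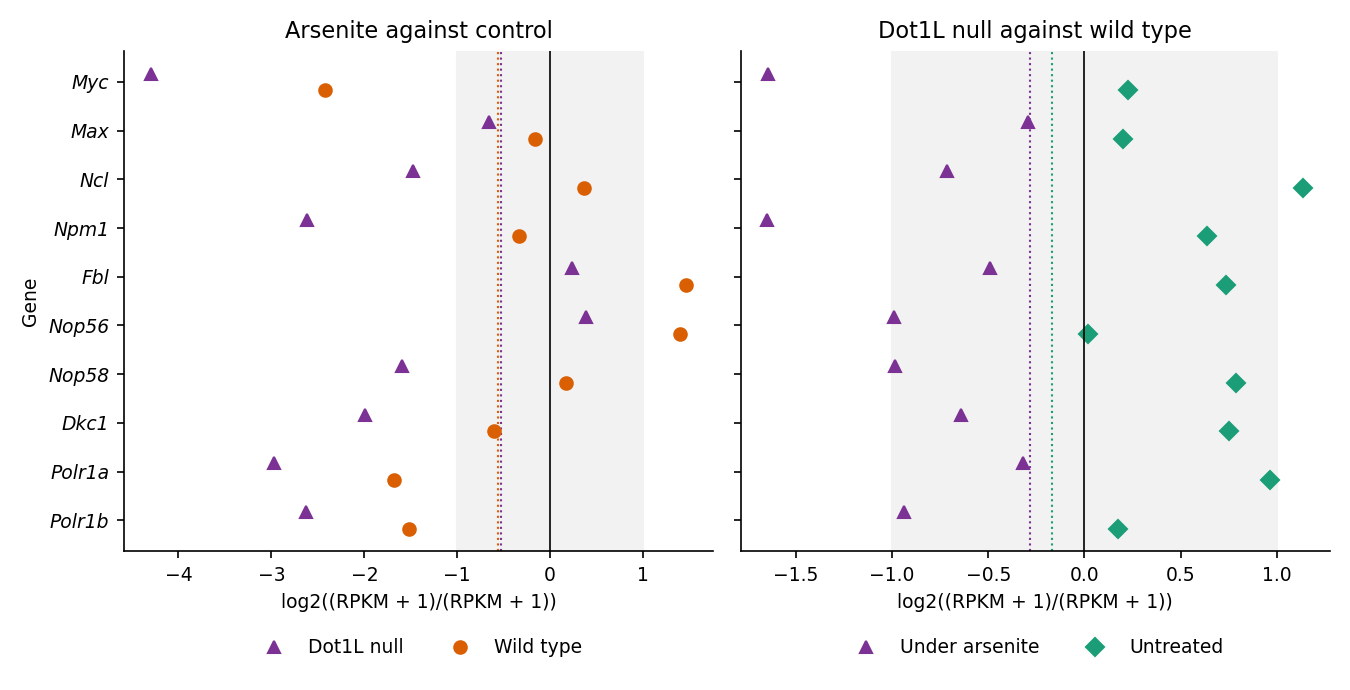
Log2 differences of the 10 genes, 1 point per comparison: on the left arsenite against control in the Dot1L null and in wild type, on the right the null against wild type under arsenite and untreated. Dotted lines mark the medians of all 12588 genes tested (-0.53 and -0.56 on the left, -0.28 and -0.17 on the right) and the shaded band lies within 2-fold; every null point on the left lies left of its wild-type point.

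Ncl and Npm1 encode nucleolin and nucleophosmin, abundant nucleolar proteins that bind ribosomal RNA and assist in its processing and in the assembly and export of ribosomal particles. Ncl (ENSMUSG00000026234, chromosome 1, 86344719 to 86359455) had 113 RPKM with arsenite and 317 RPKM in the control in the null, 2.81-fold lower (2.75 to 2.86). In wild type it had 186 RPKM with arsenite and 144 RPKM in the control, 1.29-fold higher (1.27 to 1.32). The null control was the highest of the 4 libraries and the null with arsenite the lowest. Arsenite lay below the control in the null and above it in wild type, with log2 differences of -1.48 and 0.37; the null value became 0.30 when a length trend fitted over genes with an RPKM of at least 5 was removed. The recovered length of Ncl, 8257 bases of a gene span of 14737, is long for the 10 and may exceed that of its mRNA. The 1485 genes of like length had medians of -1.32 and -1.38. Without the trend over all genes the Ncl values were -0.06 in the null and 1.72 in wild type, and the difference between them was -1.78. Untreated, Ncl was 2.21-fold higher in the null than in wild type (2.19 to 2.22), and it was the only one of the 10 past 2-fold there on the log2 scale, at 1.14.

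Npm1 (ENSMUSG00000057113, chromosome 11, 33152498 to 33164142) had 109 RPKM with arsenite and 677 RPKM in the control in the null, 6.19-fold lower (5.99 to 6.41). Its wild-type levels were 345 RPKM with arsenite and 436 RPKM in the control, 1.26-fold lower (1.24 to 1.29). The null with arsenite thus stood far below the other 3 libraries, which lay between 345 and 677 RPKM. Its difference of the arsenite effects, -2.28, was the most negative of the 10, with a median of -0.09 for 2566 genes of like length. Under arsenite Npm1 was 3.15-fold lower in the null than in wild type (3.03 to 3.28), and untreated it was 1.55-fold higher (1.54 to 1.57). The small wild-type difference, -0.34 on the log2 scale, became 0.22 once the median of all genes was set to 0. The ratio of Npm1 to Ncl within a library was 0.969 in the null with arsenite, 2.14 in the null control, 1.86 in wild type with arsenite and 3.03 in the wild-type control. Npm1 was the higher of the 2 per length in all libraries but the null with arsenite.

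Fbl, Nop56 and Nop58 encode proteins of the box C/D particles: fibrillarin is the methyltransferase, and NOP56 and NOP58 are the paired scaffold proteins that hold it on the guide RNA. Fbl (ENSMUSG00000046865, chromosome 7, 28168893 to 28179269) had 227 RPKM with arsenite and 192 RPKM in the control in the null, 1.18-fold higher (1.14 to 1.23). Wild-type cells had 319 RPKM with arsenite and 115 RPKM in the control, 2.78-fold higher (2.67 to 2.88). Both arsenite libraries were above their controls, although the log2 difference of 0.24 in the null became -0.22 with the length trend removed. Fbl is the shortest of the 10 at 1159 bases, and 885 genes of like length had medians of 0.69 in the null and 0.70 in wild type. Its wild-type log2 difference of 1.47 became 1.04.

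Nop56 (ENSMUSG00000027405, chromosome 2, 130274367 to 130279313) had 113 RPKM with arsenite and 85.9 RPKM in the control in the null, 1.31-fold higher (1.27 to 1.35). In wild type it had 225 RPKM with arsenite and 84.9 RPKM in the control, 2.65-fold higher (2.59 to 2.71). The 2 controls differed by less than the counting interval, at a ratio of 1.01 of null over wild type (0.993 to 1.03), the only such pair among the 10 genes. The recovered length of Nop56 was 4099 bases, of a gene span of 4947 bases. It may exceed that of the mRNA, in which case genes of like length are a poor match. The 3054 genes of like length had medians of -0.79 in the null and -0.81 in wild type, where Nop56 stood at 0.39 and 1.39. With the length trend removed its values were 1.14 and 2.11. Its difference of the arsenite effects was -1.01, at the edge of the threshold, and -0.97 with the length trend removed.

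Nop58 (ENSMUSG00000026020, chromosome 1, 59684961 to 59711510) had 55.2 RPKM with arsenite and 169 RPKM in the control in the null, 3.07-fold lower (2.90 to 3.25). Its wild-type levels were 110.0 RPKM with arsenite and 97.6 RPKM in the control, 1.13-fold higher (1.08 to 1.18). As for Ncl, the effects pointed in opposite directions, -1.60 in the null and 0.17 in wild type, and the length trend moved them only to -1.55 and 0.23. The ratio of Nop56 to Nop58 was 2.04 in the null with arsenite, 0.508 in the null control, 2.04 in wild type with arsenite and 0.870 in the wild-type control. Nop56 stood above Nop58 in both arsenite libraries, at the same ratio, and below it in both controls. The ratio of Fbl to Nop56 moved less with arsenite, at 2.02 and 2.24 in the null with and without it, and 1.42 and 1.35 in wild type with and without it. The summed RPKM of the 3 box C/D genes was 395 with arsenite and 447 in the control in the null, and 654 with arsenite and 298 in the control in wild type.

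Dkc1 (ENSMUSG00000031403, chromosome X, 75095854 to 75109776) encodes dyskerin, the pseudouridine synthase of the box H/ACA particles, which also belongs to telomerase. It had 6.45 RPKM with arsenite and 28.8 RPKM in the control in the null, 4.46-fold lower (3.98 to 5.00). Wild-type cells had 10.6 RPKM with arsenite and 16.7 RPKM in the control, 1.57-fold lower (1.43 to 1.73). Both arsenite libraries were below their controls, although the wild-type log2 difference of -0.61 became 0.11 without the length trend. In the null it was -1.24 without that trend. The medians of 3040 genes of like length were -0.79 in the null and -0.81 in wild type, so Dkc1 lay above its like in wild type. Dkc1 was 1.72-fold higher in the untreated null than in untreated wild type (1.66 to 1.79).

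Polr1a and Polr1b encode the 2 largest subunits of RNA polymerase I, which together form its catalytic centre. Polr1a (ENSMUSG00000049553, chromosome 6, 71909053 to 71979435) had 7.16 RPKM with arsenite and 62.8 RPKM in the control in the null, 8.78-fold lower (8.05 to 9.59). In wild type it had 9.19 RPKM with arsenite and 31.8 RPKM in the control, 3.45-fold lower (3.18 to 3.75). Polr1b (ENSMUSG00000027395, chromosome 2, 129100970 to 129128060) had 1.16 RPKM with arsenite and 12.4 RPKM in the control in the null, 10.7-fold lower (8.56 to 13.5). Its wild-type levels were 3.13 RPKM with arsenite and 10.9 RPKM in the control, 3.47-fold lower (3.01 to 4.03). Both genes were lower with arsenite in both genotypes, and of the 10 genes only Myc shared this past 2-fold. Both are long, at 6105 and 5805 bases, and genes of like length had medians of -1.15 and -1.11 in the null and -1.15 and -1.13 in wild type. The wild-type log2 differences of -1.68 and -1.52 became -0.61 and -0.49 with the length trend removed, within 2-fold, while those in the null became -1.84 and -1.55. Before arsenite Polr1a was 1.98-fold higher in the null than in wild type (1.94 to 2.02) and Polr1b 1.14-fold higher (1.09 to 1.19). The ratio of Polr1a to Polr1b was 6.17 in the null with arsenite, 5.07 in the null control, 2.93 in wild type with arsenite and 2.92 in the wild-type control, so it differed more by genotype than by arsenite.

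**Figure D3:**
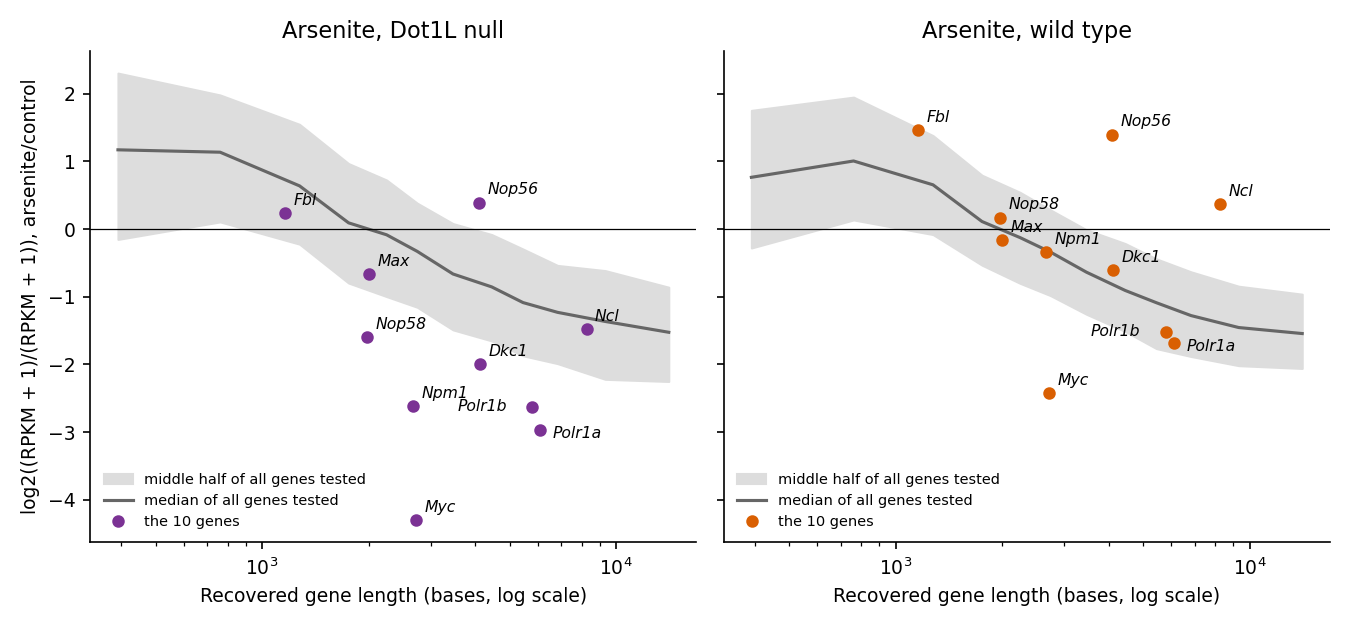
Log2 difference of arsenite against control by recovered gene length (bases, log axis) in the Dot1L null and in wild type. The line is the median and the band the middle 50% of all genes tested in 12 length classes; Nop56 lies above the band in both panels and Myc below it in both, while Polr1a and Polr1b lie below the band in the null and inside it in wild type.

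Over the 10 genes the arsenite effect spread from -4.30 (Myc) to 0.39 (Nop56) in the null, with a median of -1.80 beside -0.53 for all genes. In wild type it spread from -2.42 (Myc) to 1.47 (Fbl), with a median of -0.25 beside -0.56 for all genes. After removal of the length trend the 10 had medians of -1.39 and 0.05. Then 6 were 2-fold lower and 1 higher in the null, while 1 was lower and 3 were higher in wild type. Shares over all genes were not computed without the length trend, here or below. The 10 lay on both sides of genes of like length in wild type, with 4 below the median of those genes and 6 above it. In the null 9 lay below it, and Nop56 was the exception. The summed RPKM of the 10 genes was 659 with arsenite and 1728 in the control in the null, and 1256 with arsenite and 1093 in the control in wild type.

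**Figure D4:**
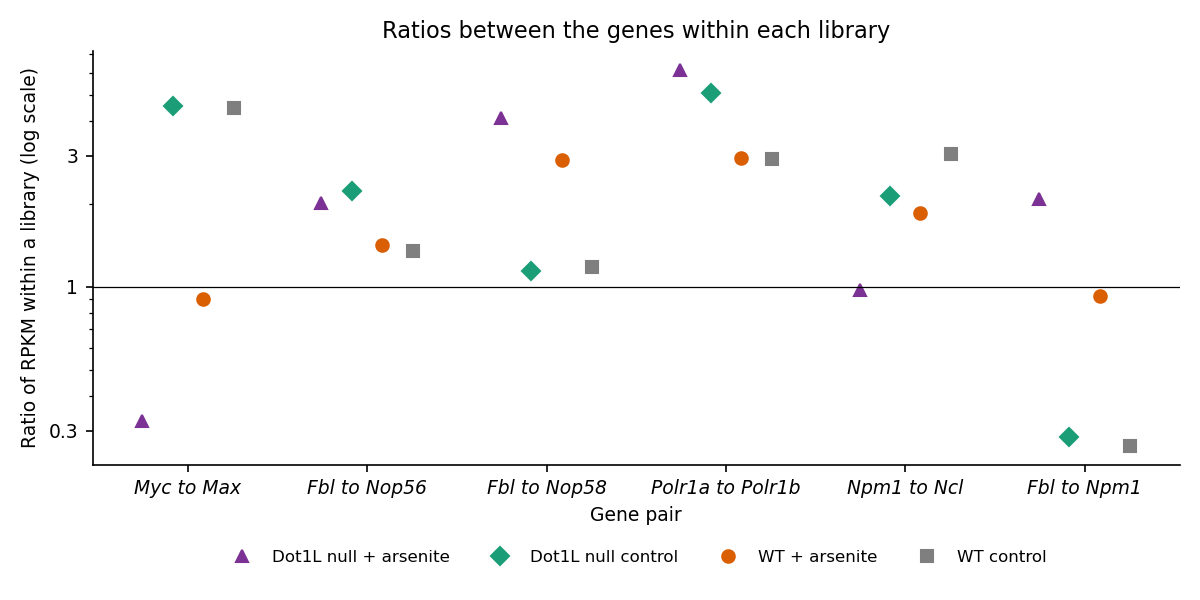
Ratio of RPKM between pairs of the 10 genes within each library (log axis), 1 point per library. The ratio of Myc to Max lay above 4 in both controls and below 1 in both arsenite libraries, whereas Fbl to Nop58 and Fbl to Npm1 were higher with arsenite in both genotypes.

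The other genes of these pathways were taken from 9 lists of 145 genes, none of them among the 10; 141 had a row and 139 passed the filter. In the null, 66 of the 139 were 2-fold lower with arsenite and 12 higher, or 47.5% and 8.63%, beside 37.1% and 15.2% of all genes (median -0.94, beside -0.53). In wild type 28 were lower and 24 higher, or 20.1% and 17.3%, beside 35.7% and 12.8% of all genes (median -0.10, beside -0.56). The balance in wild type turned with the scale: 9 were lower and 36 higher without the length trend, and 16 and 40 once the median of all genes was set to 0. In the null 53 were lower and 13 higher without the length trend. The difference of the arsenite effects was at or below -1 in 71 of the 139 (51.1%) and at or above 1 in 5 (3.60%), with a median of -1.02 beside -0.06 for all genes, where 12.8% and 12.1% passed these bounds. With the length trend removed the counts of the difference were 67 and 5. Its median was -1.23 for 34 list genes under 2000 bases, -1.01 for 68 of 2000 to under 4000 bases and -0.86 for 37 longer ones, beside medians of -0.02, -0.10 and -0.04 for all genes of the same classes. Untreated, 12 of the 139 were 2-fold higher in the null than in wild type and 5 lower, or 8.63% and 3.60%, beside 6.45% and 14.7% of all genes (median 0.28, beside -0.17). The share of higher genes was thus near that of all genes, and the count was 22 without the length trend and 5 with a pseudocount of 5 RPKM. Under arsenite 3 were higher in the null and 46 lower, or 2.16% and 33.1%, beside 8.75% and 16.9% of all genes. Their median was -0.76, beside -0.28 for all genes, and 24 were lower without the length trend.

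**Figure D5:**
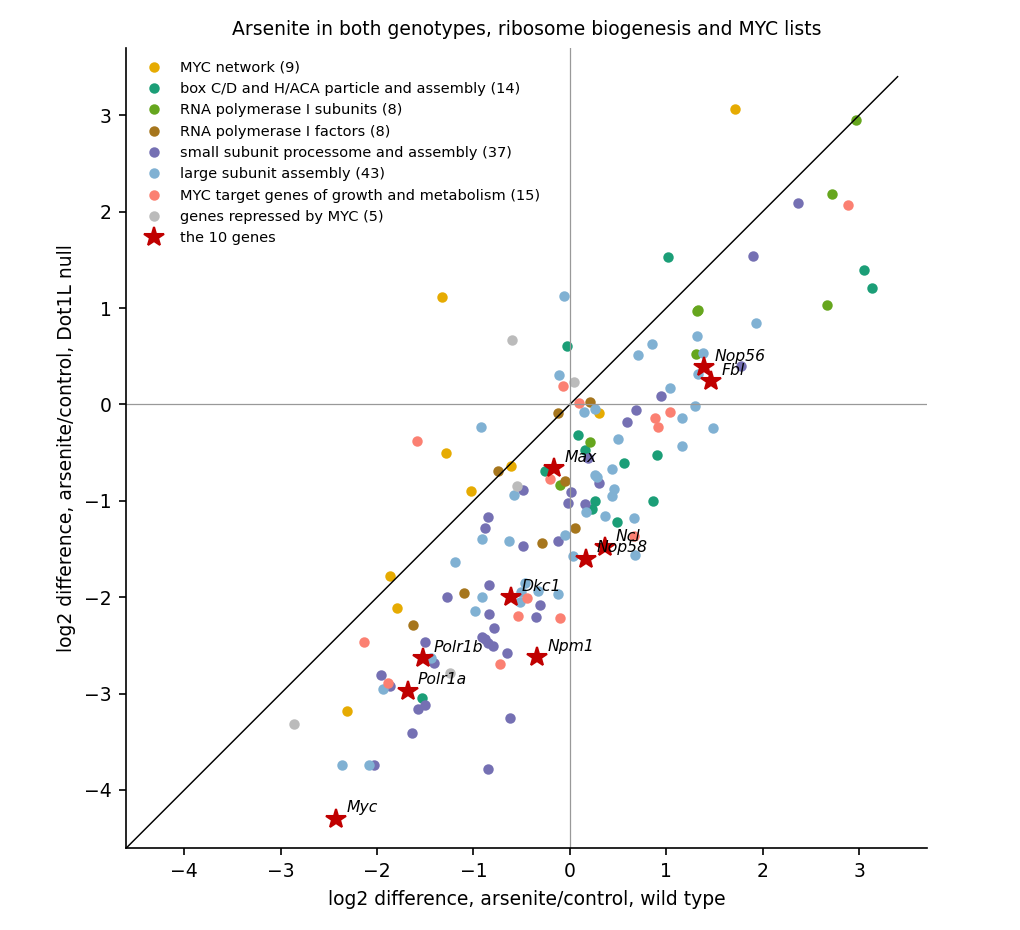
Log2 difference of arsenite against control in the Dot1L null (vertical) and in wild type (horizontal) for the 139 list genes past the filter, coloured by list with the number of genes, and for the 10 genes (stars). All 10 stars and most list genes lie below the diagonal of equal effects, and Mxd4 and Mxd3 of the MYC network lie above it.

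The MYC network list holds relatives of Myc and partners and rivals of Max. Of its 9 genes past the filter, 3 were lower and 2 higher with arsenite in the null, and 6 were lower and 1 higher in wild type. The share of lower genes in the null, 33.3%, was near the 37.1% of all genes, and that in wild type was 66.7% beside 35.7%. Higher ones were 22.2% in the null and 11.1% in wild type, beside 15.2% and 12.8% of all genes. Without the length trend 1 was lower in each genotype. Mnt, a repressor that competes with Myc for Max, had 4.15 RPKM with arsenite and 45.6 RPKM in the control in the null, and 1.88 and 13.3 RPKM in wild type with arsenite and control. Mga and Mlxip, both long genes, were lower in both genotypes as well, with log2 differences of -2.11 and -1.78 in the null and -1.80 and -1.86 in wild type; without the length trend those of Mga were -0.11 in the null and 0.11 in wild type. Mxd3, another repressor that pairs with Max, went the other way, with 9.30 RPKM with arsenite and 0.230 RPKM in the control in the null, and 15.3 and 3.96 RPKM in wild type. Mxd4, of the same family, had 37.1 RPKM with arsenite and 16.7 RPKM in the control in the null, while in wild type it had 10.2 RPKM with arsenite and a log2 difference of -1.32 from the control. Its difference of the arsenite effects, 2.43, was the most positive of the 139. Mxd3, Mycl and Mxi1 were lower in the untreated null than in untreated wild type, with log2 differences of -2.01, -1.78 and -1.23. Mycn, like Mlxipl, did not pass the filter.

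Among 14 other genes of the box C/D and H/ACA particles and their assembly, 3 were lower and 3 higher with arsenite in the null, and 1 was lower and 3 higher in wild type. Lower genes were 21.4% in the null and 7.14% in wild type, beside 37.1% and 35.7% of all genes. Higher ones were 21.4% in each genotype, beside 15.2% and 12.8% of all genes. Corrected for length, 2 were lower and 1 higher in the null, and 1 was lower and 5 higher in wild type. Of the 14, 9 had a difference of the arsenite effects at or below -1 (64.3%, beside 12.8% of all genes). None had it at or above 1, beside 12.1% of all genes. Nhp2 and Nop10, small core proteins that bind dyskerin in the H/ACA particle, did the opposite of Dkc1. Nhp2 had 213 RPKM with arsenite and 80.4 RPKM in the control in the null, and 452 RPKM with arsenite and 53.4 RPKM in the control in wild type. Nop10 had 78.9 RPKM with arsenite and 33.7 RPKM in the control in the null, and 141 RPKM with arsenite and 15.1 RPKM in the control in wild type. Both are short, at 1146 and 1109 bases, a length at which most genes were higher with arsenite. Naf1, an assembly factor of the H/ACA particle, had 1.15 RPKM with arsenite and 16.8 RPKM in the control in the null, and 2.96 RPKM with arsenite and 10.5 RPKM in the control in wild type. Snu13, the protein that first binds the box C/D RNA, had 45.3 RPKM with arsenite and 65.6 RPKM in the control in the null, and 125 RPKM with arsenite and 66.4 RPKM in the control in wild type. Znhit3 and Nolc1 had differences of the arsenite effects of -1.86 and -1.70.

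No other subunit of RNA polymerase I with a row was 2-fold lower with arsenite, unlike Polr1a and Polr1b. Of 8 with a row, 3 were 2-fold higher in the null and 6 in wild type. Polr1c lay below its control in both, at -0.83 in the null and -0.10 in wild type, and Polr2h in the null, at -0.39. Polr1e stood at 0.52 and 1.31. The difference of the arsenite effects was below 0 for all 8, from -1.64 to -0.01, as for Polr1a and Polr1b. Higher subunit genes were 37.5% in the null and 75% in wild type, beside 15.2% and 12.8% of all genes. Over all genes 37.1% were lower in the null and 35.7% in wild type. Polr1f, Polr1g and Polr1h were not matched to a row and are not analysed here. Polr2l, a small subunit shared by RNA polymerases, had 236 RPKM with arsenite and 29.6 RPKM in the control in the null, and 137 RPKM with arsenite and 16.7 RPKM in the control in wild type. Polr2f and Polr2k, also shared, had log2 differences of 2.18 and 1.03 in the null and 2.72 and 2.67 in wild type. Polr1d, shared with RNA polymerase III, stood at 0.98 and 1.33. Without the length trend 5 of the 8 were higher in the null and 6 in wild type, and none was lower. Of 8 factors that load or assist the enzyme, 4 were lower with arsenite in the null and 2 in wild type, with none higher. Lower factors were 50% in the null and 25% in wild type, beside 37.1% and 35.7% of all genes. Without the length trend 3 factors were lower in the null, and 1 was lower and 1 higher in wild type. Taf1a, of the promoter selectivity complex, and Tcof1, which promotes transcription of the ribosomal RNA genes, were lower in both genotypes, with log2 differences of -2.28 and -1.96 in the null and -1.62 and -1.10 in wild type. Ubtf, which encodes the upstream binding factor of the ribosomal RNA genes, had 20.2 RPKM with arsenite and 56.3 RPKM in the control in the null, and 22.9 RPKM with arsenite and 28.1 RPKM in the control in wild type.

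The list of small subunit processome and assembly genes had the highest share of lower genes in the null among the lists. The processome is the large particle that trims and folds the small subunit's RNA, and the list also holds factors of later assembly. Of 37, 27 were lower with arsenite in the null and 2 higher (median -2.08), while in wild type 9 were lower and 3 higher (median -0.79). Lower genes were 73.0% in the null and 24.3% in wild type, beside 37.1% and 35.7% of all genes. Higher ones were 5.41% and 8.11%, beside 15.2% and 12.8% of all genes. With the length trend removed 23 were lower in the null and 2 in wild type. Pno1, an RNA-binding factor of late small subunit assembly, had 1.91 RPKM with arsenite and 39.0 RPKM in the control in the null, and 12.7 RPKM with arsenite and 23.7 RPKM in the control in wild type. Its difference of the arsenite effects, -2.93, was the most negative of the 139. Wdr75 and Heatr1, which help transcribe and process the ribosomal RNA, had log2 differences of -3.25 and -3.41 in the null and -0.62 and -1.63 in wild type. Utp20, a long gene at 8831 bases, stood at -3.74 and -2.03. Fcf1 and Imp3, short genes at 1117 and 898 bases, were higher in both genotypes, by 2.09 and 1.54 in the null and by 2.37 and 1.90 in wild type.

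Of 43 genes of large subunit assembly, 20 were lower with arsenite in the null and 1 higher (median -0.94), and in wild type 5 were lower and 9 higher (median 0.17). Lower genes were 46.5% in the null and 11.6% in wild type, beside 37.1% and 35.7% of all genes. Higher ones were 2.33% and 20.9%, beside 15.2% and 12.8% of all genes. Once the length trend was taken out, 15 were lower and 2 higher in the null (median -0.42), and 2 were lower and 13 higher in wild type (median 0.54). Mdn1, which encodes the giant remodelling enzyme of the large subunit particle and has a recovered length of 21836 bases, had log2 differences of -3.74 in the null and -2.37 in wild type. Rrs1, which helps bring the 5S particle into the large subunit, is far shorter at 2047 bases and stood at -3.74 and -2.08. Nip7 had 16.2 RPKM with arsenite and 49.9 RPKM in the control in the null, and 36.9 RPKM with arsenite and 22.8 RPKM in the control in wild type. Nop2 and Rsl1d1 had differences of the arsenite effects of -1.85 and -1.84. Nop53, chosen after its values were seen, was the gene of this list with a difference above 1, at 1.18. Bop1, a partner of Pes1 in large subunit processing, was the gene of the list that was 2-fold lower in the untreated null, at 32.4 RPKM in the null and 81.9 RPKM in wild type.

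Of 15 known target genes of Myc outside ribosome assembly, 7 were lower with arsenite in the null and 1 higher, and 3 were lower and 2 higher in wild type. Lower genes were 46.7% in the null and 20.0% in wild type, beside 37.1% and 35.7% of all genes. Higher ones were 6.67% and 13.3%, beside 15.2% and 12.8% of all genes. Without the length trend the counts in the null were the same, and in wild type none was lower and 4 were higher. The difference of the arsenite effects was at or below -1 in 9 and at or above 1 in 1. These were 60% and 6.67%, beside 12.8% and 12.1% of all genes. Odc1, the first enzyme of polyamine synthesis, had 50.04 RPKM with arsenite and 237 RPKM in the control in the null, and 114 RPKM with arsenite and 122 RPKM in the control in wild type. Hspd1 and Shmt2, a mitochondrial chaperonin and a mitochondrial serine enzyme, had differences of -1.97 and -1.66. Cad, the multifunctional enzyme that starts pyrimidine synthesis, was lower in both genotypes, at -2.46 in the null and -2.14 in wild type, and so was Tfrc, the transferrin receptor gene, at -2.89 and -1.88. Nme1 was higher in both, at 2.07 and 2.89; its reads could be shared with the near-identical neighbour Nme2, so both are uncertain. Ccnd2, a cyclin of the early cell cycle, was the gene with a difference above 1, at 1.21. Of 5 genes that Myc is known to repress, none was 2-fold higher with arsenite in either genotype (15.2% of all genes in the null and 12.8% in wild type). Of these, 2, Ndrg1 and Gadd45a, were 2-fold lower in both. That share, 40% in each genotype, was near the 37.1% of all genes in the null and the 35.7% in wild type. Cdkn1a, a cell cycle inhibitor gene, was far higher in the null both under arsenite (168 RPKM in the null and 8.84 RPKM in wild type) and untreated (143 and 8.56 RPKM).

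The genes whose pattern over the 4 libraries lay nearest to that of Myc, by distance over 3 log2 differences among 11228 genes with ordinary symbols, were Hnrnph1, Tfdp1, Dhx9, Zfp146 and Kdm4a, at distances of 0.26 to 0.47. Hnrnph1, the nearest, had 3.50 RPKM with arsenite and 79.6 RPKM in the control in the null, and 12.9 RPKM with arsenite and 63.8 RPKM in the control in wild type. Nearest to the mean of the other 9 genes were Scpep1, Commd10, Klhl9, Gars and Ift57, at distances of 0.09 to 0.15. Gars had 132 RPKM with arsenite and 351 RPKM in the control in the null, and 194 RPKM with arsenite and 215 RPKM in the control in wild type.

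The RefSeq annotation places 12 small nucleolar RNA genes inside Ncl, Nop56, Nop58 and Dkc1, whose introns are known to carry such RNAs. A row was found for 8 of them, and reads were few. Snora75, inside Ncl, had 18 reads with arsenite and 44 in the control in the null, and 15 with arsenite and 26 in the control in wild type. Scaled for depth, its level was higher with arsenite in both genotypes. It was 11.4 RPKM with arsenite and 5.11 RPKM in the control in the null, and 10.4 and 3.10 RPKM in wild type. No counting interval was computed for it. Short genes in general were higher with arsenite. Those from 200 up to 500 bases long had median log2 differences of 1.17 in the null and 0.76 in wild type, and Snora75 is shorter still, at 133 bases. Snord82 and Snord57 were listed at 0 in all 4 libraries, and the other 5 had 0 reads in both arsenite libraries and 1 to 14 in the controls. The controls were sequenced 5.45-fold deeper in the null and 5.81-fold deeper in wild type. The ends of Nop56 and Dkc1 overlap those of Idh3b and Mpp1 by 5 and 44 bases.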

How the data were processed

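RNA was measured by RNA-seq in 4 libraries, 1 per group. The libraries were made strand-specific after depletion of ribosomal RNA, per the labels' protocols, whereas the molecule label reads polyA RNA. TopHat, HTSeq, Bowtie, deepTools and the build mm10 are named in the submitters' processing notes, without roles. The authors deposited RPKM values; the gene annotation and strand setting behind them were not given in the sources used here. The 2 H3K27ac ChIP libraries were not analysed here.

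Symbols were matched for 35449 of 37224 IDs. Library depth was taken as the most frequent inverse of RPKM times length over small RNA genes, and gene length as the shortest one at which all 4 values of a gene gave whole reads (relative tolerance 1e-12). The procedure was tested on simulated data. Such a length may fall short of the true one by an integer factor. It is the length behind the RPKM values, which may also exceed that of the mRNA. Differences are log2((RPKM + 1)/(RPKM + 1)) over genes that reached 1 RPKM in some library, called at 2-fold. The length trend is a linear fit on log2 length over 12155 genes of at least 200 bases. Counting intervals (95%) of a ratio of reads are Clopper-Pearson intervals, exact given the sum of reads; reads without molecular identifiers are not independent molecules. With 1 library per group no p-value was computed. Alternatives were other pseudocounts, filters, thresholds, scalings and removal of the length trend. The members and lists were chosen with earlier results of these data known. Named were all 10 genes, up to 4 genes per list that differed most in each comparison, the 5 nearest patterns, and small RNA genes inside the 10. The list of pre-rRNA had no row matched. Python 3.11.15, numpy 2.4.6, pandas 2.3.3 and scipy 1.17.1 were used.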

Additional observations from a re-analysis of the deposited data

Results flagged for a closer look

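For 2 of the 10 genes the arsenite effect had opposite signs in the 2 genotypes, below 0 in the null and above 0 in wild type. The log2 difference in the null minus that in wild type was -1.85 for Ncl and -1.77 for Nop58. With 1 library per group this difference was not tested. Opposite signs occurred in 16.9% of all 12588 genes and in 44 of the 139 list genes.

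Among the 75 list genes named by the rule, 20 had opposite signs, and 18 of them were the lower in the null. The rule picks genes with large differences, among them the difference of the arsenite effects, so these counts are no result about the lists. Which genotype was the lower was not counted over all genes. For the particle genes the difference of the effects was -1.42 for Snu13, -1.16 for Gar1, -1.26 for Ruvbl2, -1.86 for Znhit3 and -1.70 for Nolc1. For genes of RNA polymerase I and its factors it was -0.59 for Polr2h and -1.34 for Taf1d. For large subunit genes it was -1.73 for Nop16, -2.23 for Nip7, -1.31 for Rpf1, -1.39 for Ftsj3, -1.61 for Mak16, -1.32 for Lyar and -1.84 for Rsl1d1. The value for Nme2, a target gene of Myc, rests on 7 reads in the null with arsenite and 24 in wild type with arsenite. Its reads could also be shared with Nme1. For target genes of Myc the difference of the effects was -2.02 for Nme2, -1.15 for Cdk4 and -1.02 for Eif4a1. In the MYC network this difference was -0.39 for Mlx and 2.43 for Mxd4, and among genes that Myc is known to repress it was 1.27 for Cdkn2b. None of these differences was tested.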

How the results depend on the processing

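With 1 library per group no replicate could be left out, and no difference can be told from the spread between cultures. No paired analysis was possible because each group has 1 library and the labels carry no replicate numbers. Of 400 values of the 10 genes under other settings, 390 kept their sign. Among values past 2-fold, 1 reversed: the arsenite effect of Ncl in the null became 0.30 with a length trend fitted over genes with an RPKM of at least 5. That alternative was chosen after seeing the data. Filters on low values and a pseudocount of 0.1 RPKM moved no count by over 1.5 times. The cause of the changes below was not tested. Shares over all genes were computed at the main setting only, so the counts below cannot be set beside those of all genes.

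At a 1.5-fold threshold 6 of the 10 genes were higher in the untreated null and 7 lower in the null under arsenite. Of the 139 list genes, 37 were then higher and 11 lower in the untreated null, 7 higher and 87 lower in the null under arsenite, 19 higher with arsenite in the null, 49 lower with arsenite in wild type, and 8 had a higher difference of the arsenite effects. With a pseudocount of 5 RPKM, 5 list genes were higher and 2 lower in the untreated null and 24 lower in the null under arsenite, and the list medians were -0.53 in the null under arsenite and -0.82 for the difference of the arsenite effects.

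After median centring, 2 of the 10 genes were higher in the untreated null. Of the list genes 19 were higher in the untreated null, 7 higher and 18 lower in the null under arsenite, 22 higher with arsenite in the null, and 40 higher and 16 lower with arsenite in wild type. The list medians were 0.45 (null untreated), -0.48 (null under arsenite), -0.40 (arsenite in the null) and 0.46 (arsenite in wild type). Scaling to the 75th percentile gave 2 of the 10 higher in the untreated null and 1 higher with arsenite in the null. Of the list genes 6 were higher and 22 lower in the null under arsenite and 22 higher with arsenite in the null, with medians of 0.42 (null untreated), -0.56 (null under arsenite), -0.41 (arsenite in the null) and 0.39 (arsenite in wild type).

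With the length trend removed, 2 of the 10 were higher in the untreated null, 1 higher with arsenite in the null and 1 lower with arsenite in wild type. Of the list genes 22 were higher in the untreated null, 5 higher and 24 lower in the null under arsenite, and 9 lower with arsenite in wild type, with medians of 0.48 (null untreated), -0.55 (null under arsenite), -0.42 (arsenite in the null) and 0.21 (arsenite in wild type). With the trend fitted over genes with an RPKM of at least 5, the counts over the 10 were also 2, 1 and 1. Of the list genes 21 were higher in the untreated null, 5 higher and 19 lower in the null under arsenite, and 12 lower with arsenite in wild type, with medians of 0.47, -0.49, -0.44 and 0.25 in the same order.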
